A study of Mus musculus with 12 samples.

Results

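The genes examined were 10 ion channel genes of mechanosensation, Piezo1, Piezo2, Trpv2, Trpv4, Trpm7, Trpc1, Pkd2, Tmem63a, Tmem63b and Kcnk2, taken by name from a table of raw counts that listed 33246 genes. Of these, 14542 genes had enough counts to be tested, and all 10 channel genes were among them. Trpv2 alone had a mean count, 61.1 per sample, below 178 counts, the level under which counting noise exceeds the spread between replicates. No change of Trpv2 was called and its intervals were wide, so it was too low to judge.

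Mechanosensitive channels open when the membrane or the attached cytoskeleton is stretched, so that a force is turned into an ionic current. PIEZO channels and several TRP channels let calcium into the cell, where it acts on kinases, phosphatases and proteases that alter adhesion and transcription, whereas the two-pore potassium channel TREK-1, the product of Kcnk2, lets potassium out and lowers excitability. In fibroblasts such channels are known for their part in spreading, contraction and the response to matrix stiffness.

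RNA came from primary mouse ear fibroblasts at passage 2, of which 500000 were seeded per sample on alginate gels and collected after 48 h, with 3 samples on each of 4 gels. The 2-kPa elastic and 20-kPa elastic gels were crosslinked covalently and hardly relaxed under load, and the 2-kPa viscoelastic and 20-kPa viscoelastic gels were crosslinked with calcium ions and relaxed slowly. All gels were alginate that carried an RGD adhesion peptide, and the labels name no genetic change in any group. The study's methods name C57BL/6 mice of 1 month, male and female, and a Tau-EGFP reporter line as sources of ear fibroblasts, and the labels do not give the mice behind each sample. Stress relaxation and crosslinker chemistry, including the calcium held in the gel, cannot be told apart in this design. Since RNA was taken from whole cultures, fewer cells of a type and less RNA per cell cannot be told apart either.

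Each sample held between 36626221 and 43612804 counts on genes, and the 10 fibroblast markers, with Fn1 highest, summed to between 58090 and 83100 CPM (the usual scaling of counts to a fixed library total, here after TMM normalization). These marker sums were lowest on 20-kPa viscoelastic gels (58090 to 60633 CPM) and highest on 2-kPa elastic gels (75152 to 83100 CPM). Fn1 alone ran from 30703 to 56695 CPM over all samples, a range that could carry most of this difference. The sums are therefore not a measure of fibroblast content. Of the other cell types that ear tissue could add, the lists for Merkel cells, endothelial cells, immune cells, skeletal muscle, melanocytes and adipocytes each summed to at most 10.6 CPM, with Tyr at 0 in all samples. Keratinocyte markers summed to 14.1 to 23.4 CPM, with Krt5, Krt14, Epcam and Cdh1 each under 1 CPM, and sensory neuron markers to 11.8 to 15.3 CPM, with Prph and Scn9a each under 1 CPM. Chondrocyte markers, in contrast, summed to 4363 to 5958 CPM with all 5 present and Col2a1 highest (mean 2839 CPM), so cartilage markers were present beside those of fibroblasts.

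To compare levels between genes, CPM was divided by the length of each gene's exons. Pkd2 was highest at a mean of 59.7 CPM per kb over the 12 samples and stood above every other channel in every sample. Piezo1 (22.0), Trpm7 (17.8), Trpv4 (16.1) and Tmem63a (15.9 CPM per kb) followed, and each overlapped with its neighbour in this order. Tmem63b (8.81) and Kcnk2 (8.32 CPM per kb) formed the next step and overlapped with each other. Trpc1 (0.734), Piezo2 (0.566) and Trpv2 (0.328 CPM per kb) were the lowest, Trpc1 and Piezo2 overlapping and Trpv2 below both in all samples. The 7 higher channels lay between the 66.5th and 95.9th percentiles of the tested genes by this measure, and the 3 lower ones between the 13.0th and 19.6th.

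**Figure D1:**
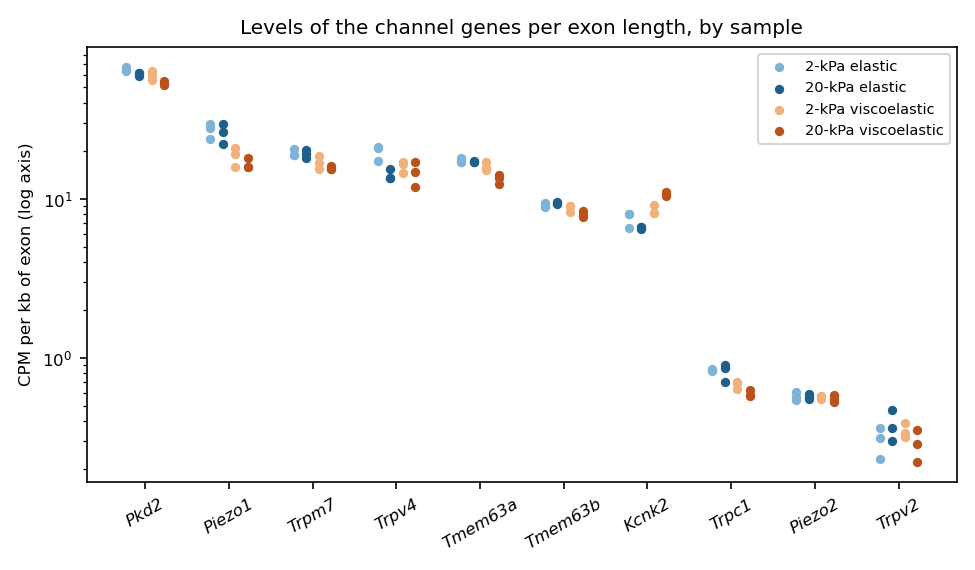
Level of each channel gene as TMM-normalized CPM per kb of exon length (log axis), with each point a sample coloured by gel and the genes ordered by their mean. Pkd2 (51.8 to 67.5 CPM per kb) lies above all other channels, and Trpc1, Piezo2 and Trpv2 lie below 1 CPM per kb.

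The first question was whether slow stress relaxation altered the channel genes at equal stiffness. A change was called at an adjusted p (Benjamini-Hochberg, over all tested genes) under 0.05 in edgeR's quasi-likelihood test, with no minimum fold. On 2-kPa gels 2 of the 10 channels fell on viscoelastic against elastic gels, Piezo1 and Trpc1, and none rose, where 19.9% of all tested genes changed and 11.1% fell. On 20-kPa gels 7 of 10 changed, where the share of all tested genes was 33.5%. Among these 7, Piezo1, Trpm7, Trpc1, Pkd2, Tmem63a and Tmem63b fell, against 16.1% of all genes, and Kcnk2 rose. The median log2 fold change of the 10 channels was -0.13 on 2-kPa gels and -0.26 on 20-kPa gels, beside 0.02 for all tested genes on 20-kPa gels. Averaged over both stiffnesses, the same 7 channels changed, 6 lower and 1 higher, where 40.0% of all genes changed and 20.4% fell. Scaling by total counts in place of TMM left 39.5% of the genes called in this mean lower, against 51.1% with TMM.

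**Figure D2:**
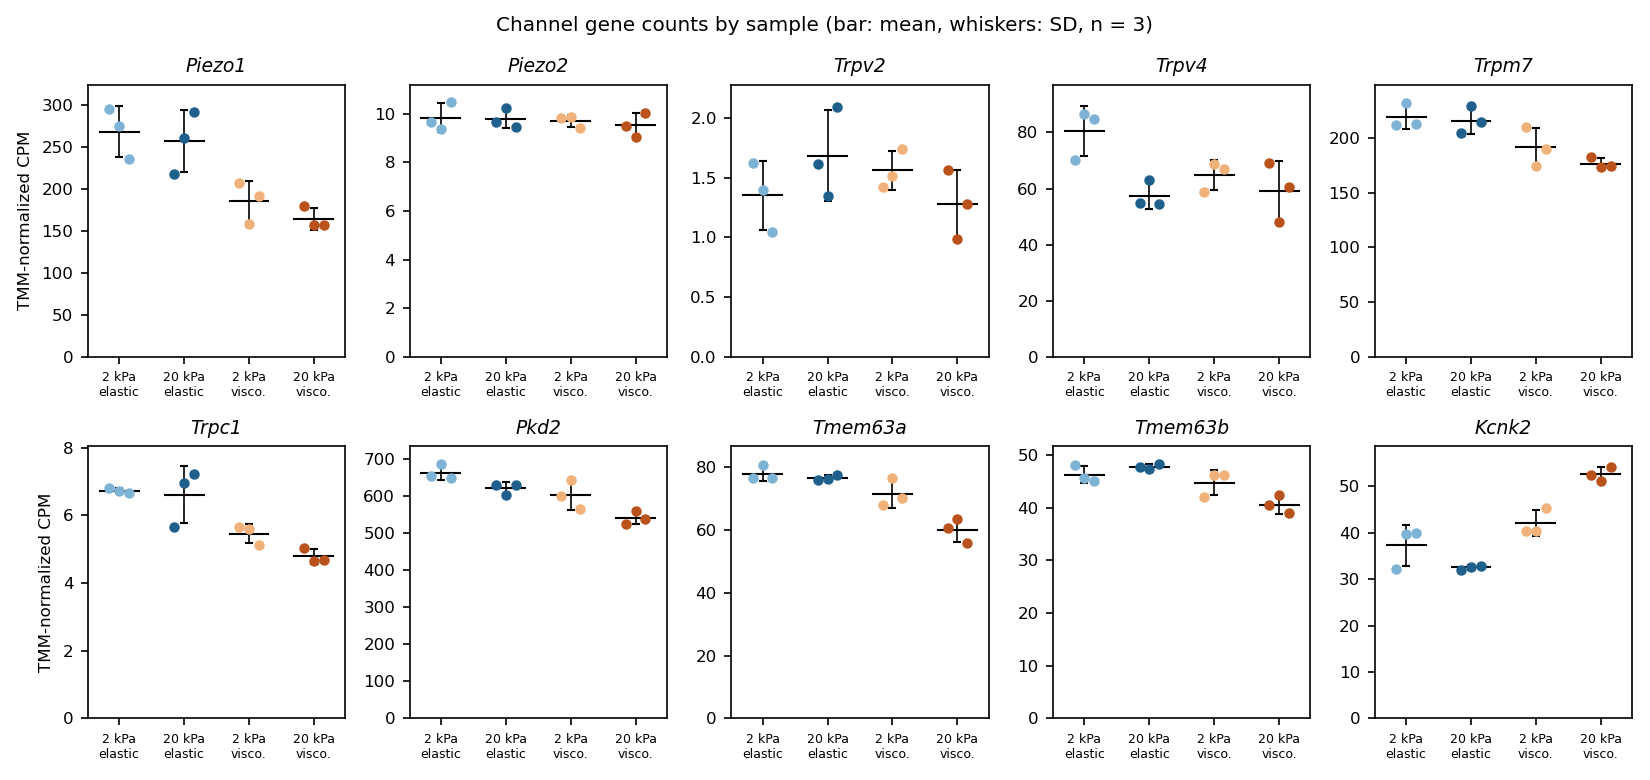
TMM-normalized CPM of each channel gene (vertical axes, from 0) on the 4 gels, with points for the 3 samples, bars for their mean and whiskers for the SD. Piezo1 lies lower on both viscoelastic gels (157 to 206 CPM) than on both elastic gels (218 to 295 CPM), Kcnk2 is highest on 20-kPa viscoelastic gels, and Piezo2 lies between 9.04 and 10.5 CPM in all samples.

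Piezo1 encodes the large trimeric cation channel that opens with membrane tension in most non-neuronal cells. The gene lies at chr8:122481698-122551329 on the minus strand of mm10. Its level was 295, 274 and 235 CPM in the samples on 2-kPa elastic gels and 206, 158 and 191 CPM on 2-kPa viscoelastic gels. On 20-kPa gels it was 218, 260.2 and 291 CPM when elastic and 179.7, 157 and 157 CPM when viscoelastic. The highest viscoelastic sample was therefore below the lowest elastic one, across both stiffnesses. Piezo1 fell by 31.0% on 2-kPa gels (log2 fold change -0.54, SE 0.12, adjusted p = 0.00511, edgeR quasi-likelihood test) and by 35.9% on 20-kPa gels (-0.64, SE 0.12, adjusted p = 0.000891, edgeR). With gene length and GC content corrected for, the log2 fold change at 2 kPa shrank to -0.32 and its call was lost (adjusted p = 0.0532, edgeR; 1.23e-05 to 0.0681 over all alternatives), while that at 20 kPa came to -0.51 and was still called. Exons of Piezo1 share 2441 bases, 24.6% of their length, with those of Ctu2 on the opposite strand, and without a stated strand setting these reads cannot be told apart. Ctu2, a tRNA thiolation gene, had 297 to 436 counts per sample and log2 fold changes of -0.15 and -0.18 on 2-kPa and 20-kPa gels (adjusted p = 0.358 and 0.215, edgeR), against Piezo1 counts of 6250 to 12384. Markers of pericytes or smooth muscle were also lower on viscoelastic gels, at 296 to 353 CPM against 393 to 561 CPM on elastic gels. That sum was led by Cspg4 (mean 386 CPM) with Rgs5 under 1 CPM, and its part in the lower Piezo1 was not tested.

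The window of 250 bases before the transcription start of Piezo1 (RefSeq, GRCm38.p6, minus strand, chr8:122551330-122551579) is shown because the gene fell at both stiffnesses. It was searched on both strands for 4 motifs of transcription factors that respond to force, calcium or serum, namely TEAD (GGAATG), AP-1 (TGANTCA), NFAT (GGAAAA) and the CArG box, and it holds none of them, so no letter is in capitals.
Piezo1: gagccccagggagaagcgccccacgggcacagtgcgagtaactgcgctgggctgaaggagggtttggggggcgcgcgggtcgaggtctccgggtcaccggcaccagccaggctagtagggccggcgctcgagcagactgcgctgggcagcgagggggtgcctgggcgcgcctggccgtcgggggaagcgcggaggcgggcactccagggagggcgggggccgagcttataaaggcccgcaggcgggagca
Windows of 9 of the 10 channels were searched, 14 windows in all. The remaining channel was left out, so these counts do not cover all 10. TEAD letters were in 3 of the 14 (one each of Kcnk2, Pkd2 and Trpv2), against 12.6% of 32841 windows over all genes, AP-1 letters in 1 (Kcnk2) against 6.75%, the CArG box in 1 (Tmem63a) against 1.47%, and NFAT letters in 0 against 20.4%. These are matches of letters in a short window and not binding sites.

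Piezo2, the related channel of touch and proprioceptive neurons, is on chromosome 18. Its counts ran from 382 to 448 per sample, and its level lay between 9.04 and 10.5 CPM in all 12. Every pair of gels overlapped. The log2 fold change of viscoelastic over elastic gels was -0.02 at 2 kPa (95% interval -0.18 to 0.14, adjusted p = 0.891, edgeR) and -0.04 at 20 kPa (-0.20 to 0.12, adjusted p = 0.724, edgeR). A fall of the size seen for Piezo1 lies outside these intervals. Promoter windows of Piezo2 were left out of the motif search.

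Trpv2 (chr11:62574486-62600515, plus strand), a calcium-permeable channel of the vanilloid family, had 38 to 85 counts per sample. Its levels overlapped between all gels, from 0.989 to 2.10 CPM. The 95% interval of its log2 fold change on viscoelastic gels ran from -0.27 to 0.67 at 2 kPa and from -0.86 to 0.07 at 20 kPa. Changes of either sign at 2 kPa, and a fall as large as that of Piezo1 at 20 kPa, are within these intervals, so no statement on Trpv2 can be made at this depth.

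Trpv4 (chr5:114622152-114658421, minus strand) encodes a calcium-permeable channel that responds to osmotic swelling, warmth and lipid messengers, and is well known in cartilage. It was the channel that fell with stiffness on elastic gels. The samples on 2-kPa elastic gels had 70.2, 86.7 and 84.6 CPM, and those on 20-kPa elastic gels 54.8, 63.0 and 54.6 CPM. The samples on 2-kPa viscoelastic gels had 58.9, 68.8 and 67.1 CPM, and those on 20-kPa viscoelastic gels 69.2, 47.9 and 60.4 CPM. Every 2-kPa elastic sample was above all others, though its lowest lay close to the highest 20-kPa viscoelastic one. On elastic gels Trpv4 fell by 28.6% from 2 to 20 kPa (log2 fold change -0.49, SE 0.12, adjusted p = 0.0117, edgeR). The call was lost without the second 2-kPa elastic sample (adjusted p = 0.0531, edgeR) and without the third 20-kPa elastic sample (adjusted p = 0.0528, edgeR; 5.47e-05 to 0.0701 over all alternatives). Viscoelastic against elastic gels gave -0.31 at 2 kPa (adjusted p = 0.0692, edgeR) and 0.04 at 20 kPa (adjusted p = 0.806, edgeR). On viscoelastic gels the same difference was -0.13 (95% interval -0.38 to 0.11, adjusted p = 0.573, edgeR), and the test of the difference between gel types did not pass (0.35, 95% interval 0.01 to 0.70, adjusted p = 0.215, edgeR).

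Chondrocyte markers were then summed beside Trpv4. Their level was 4641, 5958 and 5954 CPM on 2-kPa elastic gels and 4396, 4415 and 4363 CPM on 20-kPa elastic gels. It was 4656, 5908 and 5241 CPM on 2-kPa viscoelastic gels and 5891, 4669 and 5361 CPM on 20-kPa viscoelastic gels. In each of the 4 groups the 3 samples fell in the same order by Trpv4 as by these markers. On 20-kPa elastic gels replicates 1 and 3 lay close. They had 54.75 and 54.63 CPM of Trpv4, and 4396 and 4363 CPM of the markers. How many of all tested genes share this order was not tested, so the match is a description. With stiffness on elastic gels 1 of the 5 markers fell, Acan (log2 fold change -0.50, adjusted p = 0.00767, edgeR), and Col2a1, Sox9, Matn3 and Comp had values of -0.29, -0.24, -0.44 and -0.20 (adjusted p = 0.151, 0.101, 0.155 and 0.314, edgeR). At 20 kPa Comp (0.64, adjusted p = 0.00175, edgeR) and Matn3 (0.56, adjusted p = 0.0377, edgeR) rose on viscoelastic gels, where Trpv4 had 0.04. At 2 kPa Acan fell (-0.47, adjusted p = 0.00847, edgeR), where Trpv4 had -0.31, and the other 4 markers were not called. The part of chondrocyte-like cells in the Trpv4 values was not tested.

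Trpm7 (chr2:126791565-126876230, minus strand) encodes a magnesium- and calcium-permeable channel fused to a kinase. It had 204, 229 and 214 CPM on 20-kPa elastic gels and 182, 173 and 174 CPM on 20-kPa viscoelastic gels, with no overlap. Trpm7 fell by 18.2% there (log2 fold change -0.29, SE 0.07, adjusted p = 0.00646, edgeR), and its log2 fold change was -0.19 with the length and GC correction, still called. On 2-kPa gels it had 212, 232 and 213 CPM when elastic and 210.4, 174 and 189.7 CPM when viscoelastic, groups that did not overlap but lay close (log2 fold change -0.19, adjusted p = 0.0676, edgeR).

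Trpc1 (chr9:95705082-95750375, minus strand), a subunit of store-operated and receptor-operated cation channels, was scarce, with 187 to 305 counts per sample. Its samples showed 6.81, 6.71 and 6.67 CPM where the 2-kPa gel was elastic and 5.66, 5.60 and 5.13 CPM where it was viscoelastic. On 20-kPa gels it had 5.65, 6.96 and 7.22 CPM when elastic and 5.03, 4.64 and 4.69 CPM when viscoelastic. The groups did not overlap at either stiffness. Trpc1 fell by 27.5% on 20-kPa gels (log2 fold change -0.46, SE 0.10, adjusted p = 0.00341, edgeR). The call on 2-kPa gels (-0.30, SE 0.10) had an adjusted p of 0.0498 in edgeR's test and was lost in 10 of 12 fits that left out a sample and with DESeq2 (adjusted p = 0.062), with adjusted p between 0.0308 and 0.15 over all alternatives.

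Pkd2 (chr5:104459450-104505819, plus strand) encodes polycystin-2, a cation channel of the primary cilium and the endoplasmic reticulum. Its samples had 654, 686 and 649 CPM on 2-kPa elastic gels and 600.1, 645 and 564 CPM on 2-kPa viscoelastic gels. On 20-kPa gels they had 631, 603 and 631 CPM when elastic and 526, 560.2 and 538 CPM when viscoelastic. The groups did not overlap at either stiffness, though the change was small. Pkd2 fell by 12.9% on 20-kPa gels (log2 fold change -0.20, SE 0.06, adjusted p = 0.0265, edgeR), a call lost with the length and GC correction (log2 fold change -0.11, adjusted p = 0.25, edgeR) and without the third 20-kPa elastic sample, or without either the first or the third 20-kPa viscoelastic one (adjusted p = 0.0776, 0.0912 and 0.076, edgeR; 0.00144 to 0.264 over all alternatives). On 2-kPa gels the log2 fold change was -0.14 (adjusted p = 0.145, edgeR).

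Tmem63a (chr1:180942344-180975112, plus strand) and Tmem63b (chr17:45660171-45686905, minus strand) encode OSCA/TMEM63 channels, which open at high membrane tension or osmotic stress. Tmem63a had 75.9, 76.3 and 77.6 CPM on 20-kPa elastic and 60.6, 63.6 and 55.9 CPM on 20-kPa viscoelastic gels. Tmem63b had 47.8, 47.3 and 48.4 CPM on 20-kPa elastic and 40.5, 42.5 and 39.0 CPM on 20-kPa viscoelastic gels. Neither gene's groups overlapped at 20 kPa, while at 2 kPa they did for both. Tmem63a fell by 21.6% on 20-kPa gels (log2 fold change -0.35, SE 0.06, adjusted p = 0.000712, edgeR). Tmem63b fell to 0.850 of its elastic level on these gels (-0.24, SE 0.06, adjusted p = 0.00549, edgeR). Mrpl14, a mitochondrial ribosomal gene whose exons share 2.08% of the Tmem63b exon length on the opposite strand, moved the other way (0.31, adjusted p = 0.00421, edgeR). The antisense gene Gm16172 shares 5.65% of the Tmem63b exon length, and the antisense gene 2210411M09Rik shares 3.5% of that of Tmem63a. The part of these overlaps in the counts was not tested. On 2-kPa gels the log2 fold changes were -0.12 for Tmem63a (adjusted p = 0.165, edgeR) and -0.05 for Tmem63b (adjusted p = 0.583, edgeR). On viscoelastic gels Tmem63a also fell from 2 to 20 kPa (-0.25, SE 0.06, adjusted p = 0.0427, edgeR), a call lost in 11 of 12 fits that left out a sample (adjusted p of 0.005 to 0.199 over all alternatives), with only these groups fitted (adjusted p = 0.142, edgeR) and with the length and GC correction (adjusted p = 0.0537, edgeR).

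Kcnk2 (chr1:189207930-189402273, minus strand) was the channel that rose. TREK-1, its product, is a background potassium channel opened by stretch, heat and polyunsaturated lipids. The samples had 32.2, 39.8 and 39.9 CPM on 2-kPa elastic gels and 32.0, 32.7 and 32.9 CPM on 20-kPa elastic gels. They had 40.5, 40.3 and 45.3 CPM on 2-kPa viscoelastic gels and 52.5, 51.2 and 54.3 CPM on 20-kPa viscoelastic gels. The 20-kPa viscoelastic samples were above all others, and even the 2-kPa viscoelastic ones were above every elastic sample. Kcnk2 was 1.62-fold higher on viscoelastic than on elastic gels of 20 kPa (log2 fold change 0.70, SE 0.08, adjusted p = 8.67e-05, edgeR). At 2 kPa the log2 fold change was 0.17 (95% interval 0.01 to 0.34, adjusted p = 0.124, edgeR). These effects differed from each other by 0.52 on the log2 scale (SE 0.11, 95% interval 0.29 to 0.75, adjusted p = 0.00867, edgeR), and Kcnk2 was the 1 channel of 10 for which this test passed, where it passed for 7.56% of all genes.

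Seen along stiffness, Kcnk2 rose from 2 to 20 kPa on viscoelastic gels (log2 fold change 0.33, SE 0.08, adjusted p = 0.0387, edgeR) and had a log2 fold change of -0.20 on elastic gels (adjusted p = 0.106, edgeR). The log2 fold change stayed between 0.30 and 0.38 under all alternatives, but the call was lost in 8 of 12 fits that left out a sample (adjusted p of 0.0076 to 0.155 over all alternatives), with only the groups compared fitted (adjusted p = 0.093, edgeR) and with the length and GC correction (adjusted p = 0.0529, edgeR). Schwann cell markers were also higher on viscoelastic than on elastic gels of 20 kPa but, unlike Kcnk2, lower on those of 2 kPa, at 74.5 to 75.9 CPM on 2-kPa elastic, 43.1 to 47.4 on 20-kPa elastic, 52.6 to 62.6 on 2-kPa viscoelastic and 71.7 to 93.1 CPM on 20-kPa viscoelastic gels. This sum was nearly all S100b, a gene that chondrocytes also express, and Sox10 and Foxd3 were each under 1 CPM. S100b itself rose on viscoelastic gels of 20 kPa (0.94, adjusted p = 7.5e-05, edgeR), fell on those of 2 kPa (-0.38, adjusted p = 0.0105, edgeR), and with stiffness fell on elastic gels (-0.76, adjusted p = 0.000181, edgeR) and rose on viscoelastic gels (0.57, adjusted p = 0.0129, edgeR). Its part in the Kcnk2 values was not tested.

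The window before the most upstream start of Kcnk2 (RefSeq, GRCm38.p6, minus strand, chr1:189402274-189402523) is shown as that of the raised channel. Capitals mark letters of the TEAD motif on the opposite strand (CATTCC), which begin 89 bases before the start.
Kcnk2: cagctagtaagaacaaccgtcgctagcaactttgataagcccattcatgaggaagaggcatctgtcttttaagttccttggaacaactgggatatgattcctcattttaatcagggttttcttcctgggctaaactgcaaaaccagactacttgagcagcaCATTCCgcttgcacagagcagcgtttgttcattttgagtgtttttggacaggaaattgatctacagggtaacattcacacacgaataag
A second Kcnk2 start has AP-1 letters in its window, in a stretch (chr1:189344193-189344442) that is also exon of the antisense gene A430027H14Rik, with which Kcnk2 shares 12.2% of its exon length.

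**Figure D3:**
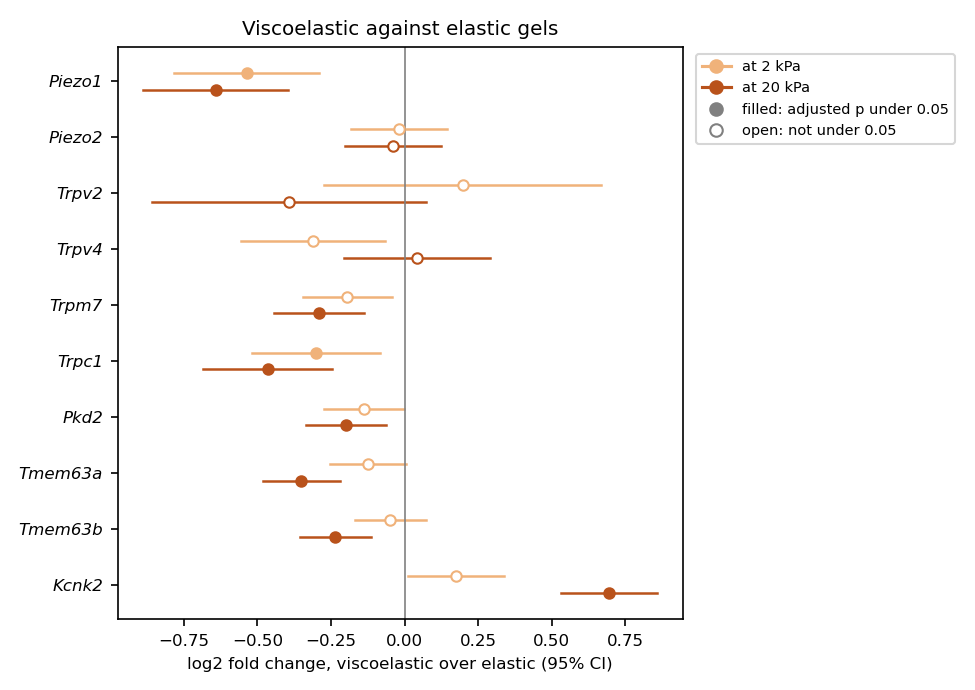
Log2 fold change of viscoelastic over elastic gels (horizontal axis, with 95% intervals) for each channel gene at 2 kPa (light) and 20 kPa (dark), filled where the adjusted p is under 0.05. At 20 kPa 6 channels are filled below 0 and Kcnk2 is filled above it at 0.70, while at 2 kPa only Piezo1 and Trpc1 are filled.

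The second question was whether stiffness altered the channels on gels of one kind. On elastic gels 1 of 10 channels changed from 2 to 20 kPa, Trpv4, where 14.0% of all tested genes did. On viscoelastic gels 2 of 10 changed, Tmem63a lower and Kcnk2 higher, where 2.28% of all tested genes did. Piezo1 had log2 fold changes of -0.06 on elastic gels (95% interval -0.31 to 0.18, adjusted p = 0.759, edgeR) and -0.17 on viscoelastic gels (-0.42 to 0.08, adjusted p = 0.456, edgeR). Both stiffness comparisons share their samples with the comparisons of gel type, so they are not independent of them.

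**Figure D4:**
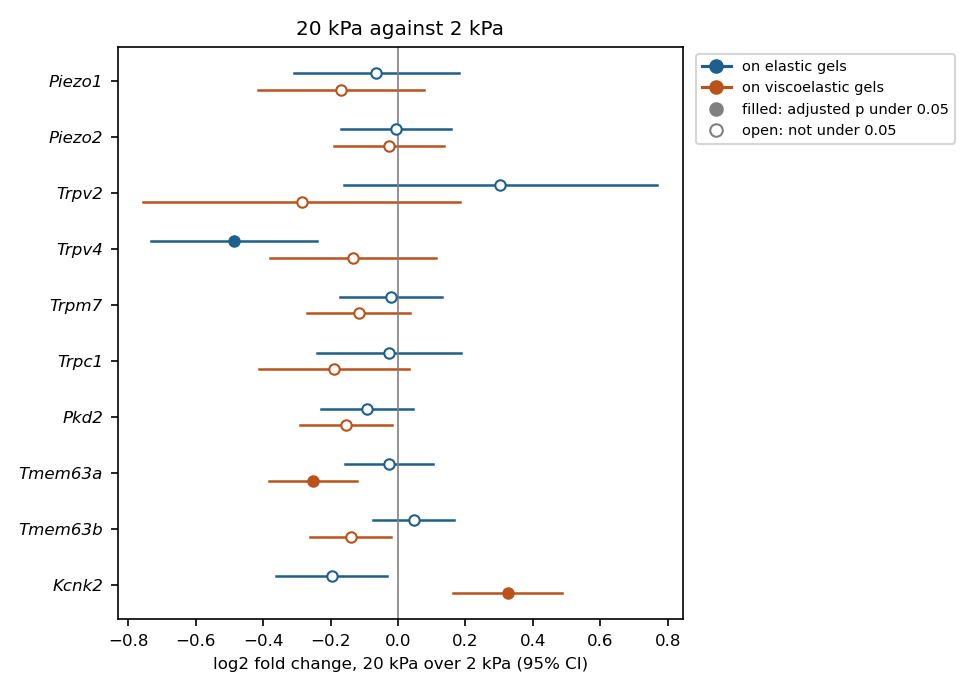
Log2 fold change of 20 over 2 kPa (horizontal axis, with 95% intervals) for each channel gene on elastic (blue) and viscoelastic (orange) gels, filled where the adjusted p is under 0.05. Trpv4 on elastic gels (-0.49), Tmem63a (-0.25) and Kcnk2 (0.33) on viscoelastic gels are filled, and the other values are open.

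Among 26 other candidate mechanosensitive channels, 16 were tested. The remaining 10, among them the sensory channels Trpa1, Trpv1 and Tmc1 and the receptor-operated Trpc6, had at most 8 counts in any sample and were too low to judge. On 2-kPa gels 2 of the 16 fell on viscoelastic gels and none rose, namely the connexin gene Gja1 (log2 fold change -0.35, adjusted p = 0.0472, edgeR) and the volume-regulated anion channel subunit Lrrc8d (-0.32, adjusted p = 0.0498, edgeR). Neither was called with DESeq2's size factors, total counts or the length and GC correction, which left 0 of the 16. On 20-kPa gels 6 fell and 1 rose. Of all tested genes 19.9% were called at 2 kPa (11.1% lower) and 33.5% at 20 kPa (16.1% lower). The sodium channel gene Asic2 was called higher (0.90, adjusted p = 0.0179, edgeR), but with a mean of 44.1 counts it lay, like Trpv2, under 178 counts, where counting noise prevails. Lrrc8b (-0.63, adjusted p = 0.0106, edgeR) and the calcium-activated cation channel Trpm4 (-0.26, adjusted p = 0.0218, edgeR) fell. The median over the 16 was -0.11 at both stiffnesses.

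Kcnk10, which encodes TREK-2, the closest relative of TREK-1, was highest on the gels where Kcnk2 was low. Elastic gels gave 1.93, 1.94 and 2.20 CPM at 2 kPa and 2.83, 3.31 and 4.09 CPM at 20 kPa. On viscoelastic gels it had 1.73, 1.71 and 1.29 CPM at 2 kPa and 1.57, 1.08 and 1.35 CPM at 20 kPa. The 20-kPa elastic samples were thus the highest for Kcnk10 and among the lowest for Kcnk2. Kcnk10 fell by 60.7% on viscoelastic gels of 20 kPa (log2 fold change -1.35, 95% interval -1.73 to -0.96, SE 0.18, adjusted p = 0.000166, edgeR) and rose with stiffness on elastic gels (0.75, adjusted p = 0.00961, edgeR). Its counts, 46 to 166 per sample with a mean of 86.5, were all under 178, so counting noise weighed more on these values than the spread between replicates.

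**Figure D5:**
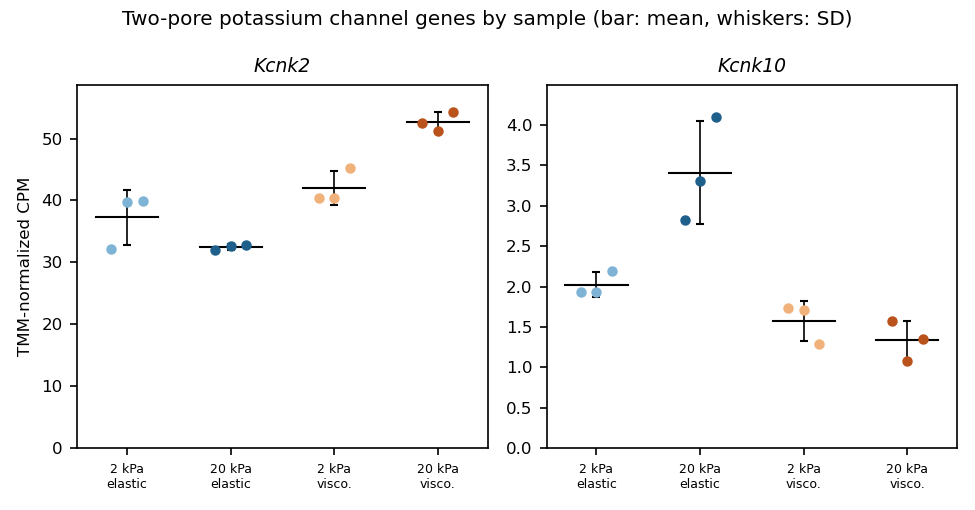
TMM-normalized CPM of Kcnk2 and Kcnk10 (vertical axes, from 0, on different scales) on the 4 gels, with points for samples, bars for means and whiskers for the SD (n = 3). On 20-kPa elastic gels Kcnk10 is highest (2.83 to 4.09 CPM), and on 20-kPa viscoelastic gels Kcnk2 is highest (51.2 to 54.3 CPM).

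Of 20 genes whose products bind or regulate these channels, 16 were tested, and 3 fell and 1 rose on viscoelastic gels of 2 kPa, and 2 fell and 1 rose at 20 kPa. With total counts the 2-kPa split was 2 lower and 2 higher, and with the length and GC correction the 20-kPa split was 3 lower and 0 higher. These counts stand beside 19.9% of all tested genes called at 2 kPa and 33.5% at 20 kPa, and are a description. Pkd1, whose product polycystin-1 pairs with polycystin-2, had 275, 266 and 213 CPM on 2-kPa elastic and 178.9, 142 and 171 CPM on 2-kPa viscoelastic gels. It fell there (log2 fold change -0.61, SE 0.11, adjusted p = 0.00143, edgeR) and at 20 kPa (-0.54, SE 0.11, adjusted p = 0.00186, edgeR). Trpm6, the relative that joins TRPM7 in one channel, fell on viscoelastic gels of 20 kPa (-0.41, adjusted p = 0.00269, edgeR), and Cnnm4, a magnesium transporter gene, fell at 2 kPa (-0.49, adjusted p = 0.00098, edgeR). Of the genes for the PIEZO-binding MyoD family inhibitors, Mdfic rose on viscoelastic gels of 2 kPa (0.25, adjusted p = 0.00829, edgeR) and had a log2 fold change of 0.02 at 20 kPa (adjusted p = 0.813, edgeR). Mdfi ranged from 11.2 to 12.9 CPM on 2-kPa elastic and from 8.03 to 8.45 CPM on 20-kPa elastic gels, while its viscoelastic samples lay between, at 9.09 to 10.6 CPM. It fell on viscoelastic gels of 2 kPa (-0.27, adjusted p = 0.0327, edgeR) and rose on those of 20 kPa (0.27, adjusted p = 0.0225, edgeR).

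Calcium entry and store genes, of which 21 of 25 were tested, had 7 lower and none higher on viscoelastic gels of 2 kPa, and 9 lower and none higher at 20 kPa. Their median log2 fold change was -0.21 at each stiffness. With the length and GC correction 5 were lower at 2 kPa and 7 at 20 kPa, and with total counts 7 and 8, with none higher. Over all tested genes 19.9% were called at 2 kPa (11.1% lower) and 33.5% at 20 kPa (16.1% lower), and the counts of this list are a description. Itpr3, an inositol trisphosphate receptor that releases stored calcium, had 224, 214 and 180.2 CPM on 2-kPa elastic and 138.5, 124 and 131 CPM on 2-kPa viscoelastic gels, and fell at both stiffnesses (log2 fold change -0.65, adjusted p = 0.000902, and -0.66, adjusted p = 0.00042, edgeR). Atp2a2, the pump that refills the store, fell at 20 kPa (-0.51, adjusted p = 0.000348, edgeR) and at 2 kPa (-0.37, adjusted p = 0.00451, edgeR). Stim2, a sensor of the store's filling, fell at 2 kPa (-0.21, adjusted p = 0.0202, edgeR) and 20 kPa (-0.19, adjusted p = 0.0212, edgeR). The plasma membrane calcium pump Atp2b1 (-0.32, adjusted p = 0.00614, edgeR) and the T-type channel Cacna1h (-0.49, adjusted p = 0.0137, edgeR) fell at 2 kPa. Cacna1h also fell with stiffness on elastic gels (-0.80, adjusted p = 0.00105, edgeR), as did the store receptors Itpr2 (-0.32, adjusted p = 0.0202, edgeR) and Itpr1 (-0.25, adjusted p = 0.0234, edgeR). Itpr2 was the 1 gene of the 4 lists called with stiffness on viscoelastic gels (-0.35, adjusted p = 0.0412, edgeR), where 2.28% of all tested genes were.

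Calcium effectors, all 27 tested, moved both ways, with 3 higher and 4 lower on viscoelastic gels of 2 kPa and 2 higher and 7 lower at 20 kPa. Their median was -0.06 on the log2 scale at 20 kPa. Of all tested genes 19.9% were called at 2 kPa and 33.5% at 20 kPa, so the counts of effectors are a description. The split of the effectors depended on the scaling, with 4 higher and 4 lower at 2 kPa and 4 higher and 6 lower at 20 kPa by total counts, and 5 higher and 2 lower, and 4 higher and 5 lower, with the length and GC correction. At 2 kPa the calcineurin target Nfatc1 (log2 fold change -0.43, adjusted p = 0.00194, edgeR) and the kinase Prkca (-0.38, adjusted p = 0.0011, edgeR) fell, and Camk2a (0.66, adjusted p = 0.0202, edgeR) and the calcineurin regulator Rcan2 (0.39, adjusted p = 0.0336, edgeR) rose. At 20 kPa Camkk1 (-0.42, adjusted p = 0.0199, edgeR) and the phospholipase Pla2g4a (-0.38, adjusted p = 0.00309, edgeR) fell, and the calpain subunit Capns1 (0.28, adjusted p = 0.00293, edgeR) and Camk1 (0.21, adjusted p = 0.00809, edgeR) rose. With stiffness on elastic gels Capn2, the catalytic subunit of a calpain that cuts adhesion proteins, rose (0.34, adjusted p = 0.00182, edgeR), as did the caveolin gene Cav1 among the partners (0.28, adjusted p = 0.0202, edgeR).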

How the data were processed

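Reads from poly(A) RNA were, per the study's methods and the labels, trimmed with Trimmomatic, aligned to mm10 with STAR and counted per gene with featureCounts on GENCODE genes. The authors deposited raw counts for 12 samples in one table, without normalization. The strand setting and the treatment of multiply mapped reads are not given in the sources used here. Counts were analysed with edgeR 4.0.16 in R 4.3.3: genes were kept by filterByExpr (a minimum count of 10 and a minimum total of 15), scaled by TMM, and fitted by quasi-likelihood with 1 coefficient per group over all 12 samples. Calls had a Benjamini-Hochberg adjusted p under 0.05 over the 14542 tested genes. Totals were 36626221 to 43612804 counts, and the biological coefficient of variation was 7.50%. The study calls the samples of a group biological replicates, but the labels do not say which animals they came from. The p-values therefore measure the spread between these samples, which may not be a spread between animals.

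The study used DESeq2, which served here as an alternative (1.42.0). Other alternatives were DESeq2's size factors, total counts, no filter on low counts, the replicate number as a block, only the groups compared, a correction for exon length and GC content, an adjusted p under 0.01, and leaving out each sample. GENCODE M21 exons matched by symbol gave the length and GC content of 94.8% of tested genes, and positions are from the same annotation (mm10). Promoter windows came from RefSeq. The fit was tested on simulated counts for viscoelastic against elastic gels of 2 kPa (14411 genes). There 71% of genes changed by 0.5 and 81% of those changed by 1 on the log2 scale were recovered. Among the unchanged genes 13 were called falsely. No change under 0.5 was simulated, so the recovery of smaller changes is not known.

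The channel genes, the 4 lists of related genes and the marker lists were chosen with earlier results of these data known. Named were all 10 channels, the called genes with the 2 largest and 2 smallest changes of each list in each comparison (not all are printed, and some are not reported here), the most similar genes of each channel and the markers. Mean and interaction tests used the same fit.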

Additional observations from a re-analysis of the deposited data

Results flagged for a closer look

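For 5 genes the effect of viscoelastic gels at 20 kPa differed from that at 2 kPa in edgeR's test of the difference itself (adjusted p under 0.05 over all tested genes). Tested were the 10 channels and, in the lists, 16 other channels, 16 partners, 21 calcium entry and store genes and 27 effectors. The same test passed for 7.56% of all tested genes, and the 5 genes are named as a description. Among the 10 channels the gene was Kcnk2, with a difference of 0.52 on the log2 scale (adjusted p = 0.00867, edgeR). Among the 4 lists of related genes these were Kcnk10 with -0.99 (adjusted p = 0.0315, edgeR), Mdfi with 0.54 (adjusted p = 0.0118, edgeR), Cacna1h with 0.64 (adjusted p = 0.0447, edgeR) and Capn2 with -0.32 (adjusted p = 0.0315, edgeR). Cacna1h had 8.21, 8.03 and 8.29 CPM on 2-kPa elastic gels and 3.97 to 6.48 CPM in all other samples. Capn2 had 392.5, 398 and 442 CPM on 20-kPa elastic gels and 321 to 357.5 CPM in all others. For both of these genes a single elastic gel stood apart from the other 3 gels.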

How the results depend on the processing

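Of 1240 recomputed values of the channels, 37 changed sign, none of them called, and no scaling moved the median of all genes by 0.1. The count of called channels at 20 kPa (7) and in the mean over stiffness (7) kept within 1.5 times under all settings. At 2 kPa it went from 2 to 1 with DESeq2, its size factors, total counts, the replicate block or an adjusted p under 0.01, to 0 with the length and GC correction with or without the block, and to 1 to 2 without 1 sample. With stiffness on elastic gels the count of 1 became 0 with the block and this correction or with an adjusted p under 0.01, and 0 to 2 without 1 sample. With stiffness on viscoelastic gels the count of 2 became 1 with the block, 0 with only these groups, with the correction (with or without the block) or with an adjusted p under 0.01, and 0 to 1 without 1 sample. In the test of the difference the count of 1 became 3 with the correction, 2 with the block as well, and 1 to 2 without 1 sample. The related genes called with stiffness on viscoelastic gels went from 1 to 5 (DESeq2), 3 (no filter) or 0 (block, or length and GC correction), and those in the test of the difference from 4 to 7 (no filter) or 1 (block). Over all genes the 331 called with stiffness on viscoelastic gels became 760 (DESeq2), 653 (no filter), 154 (block), 38 (only these groups), 140 (length and GC correction) or 77 (with the block too), and 9 without the third 20-kPa viscoelastic sample. Leaving out 1 sample lowered the other counts to 1545 from 2892 (2 kPa), 3177 from 4866 (20 kPa), 1063 from 2029 (stiffness, elastic) and 670 from 1100 (difference).

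Values that changed sign were all small. With the length and GC correction, without and with the block, Piezo2 came to 0.12 and 0.12 (2 kPa), 0.081 and 0.080 (20 kPa), 0.069 and 0.069 (stiffness, elastic), 0.025 and 0.024 (stiffness, viscoelastic) and 0.10 and 0.10 (mean), Tmem63b at 2 kPa to 0.056 and 0.056, and with stiffness on elastic gels Piezo1 to 0.091 and 0.092 and Tmem63a to 0.042 and 0.043. With total counts Piezo2 came to 0.019 (2 kPa), 0.0027 (stiffness, elastic) and 0.0070 (mean), and for stiffness on elastic gels to 0.0048 with DESeq2's size factors and 0.0056 with DESeq2. Without 1 sample the ranges were -0.054 to 0.029 for Piezo2 at 2 kPa, -0.041 to 0.041 and -0.066 to 0.0094 with stiffness on elastic and viscoelastic gels and -0.068 to 0.015 for the difference. They were -0.086 to 0.17 for Trpv4 at 20 kPa and, with stiffness on elastic gels, -0.17 to 0.057 for Piezo1, -0.065 to 0.035 for Trpm7 and -0.094 to 0.091 for Trpc1. The cause was not tested.

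Levels per kb of the longest transcript in place of all exons were 26.6 (Piezo1), 0.906 (Piezo2), 0.400 (Trpv2), 20.3 (Trpv4), 28.3 (Trpm7), 1.29 (Trpc1), 21.7 (Tmem63a), 13.7 (Tmem63b), 116 (Pkd2) and 11.5 (Kcnk2). The shared replicate numbers showed little pairing of the samples: over 18 pairs the correlation of their deviations ran from -0.20 to 0.31, and 2 passed 0.1. Both of these were between the 2-kPa and 20-kPa viscoelastic gels (0.18 and 0.31, with 0.048 for the third replicate number), so samples of these gels may be paired. In the mean over stiffness, Tmem63b was not called with total counts (adjusted p = 0.0647, edgeR) or the length and GC correction (log2 fold change -0.065, 0.146; 0.00365 to 0.186 over all alternatives), nor Pkd2 with the latter (-0.069, 0.276; 0.000163 to 0.285). Depth limited Trpv2.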

Other observations

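The genes whose log2 CPM followed each channel most closely over the 12 samples were named by Pearson's r, as a description, since all share the same libraries and group differences. Piezo1 ran with the lipase gene Abhd2 (r = 0.992) and the chromatin remodeller gene Ep400 (0.987), and Trpm7 with Ltn1, of ribosome quality control (0.981), and Zfp236 (0.979). Trpc1 ran with Micall1, of endosome recycling (0.970), and Nt5e, the ectonucleotidase CD73 (0.961). Tmem63a ran with Plod3, a collagen lysyl hydroxylase (0.966), and Clcn7, a lysosomal chloride transporter (0.951). Pkd2 ran with Lrig2 (0.961) and Ggcx, the vitamin K-dependent carboxylase (0.960), and Tmem63b with Rnf223 (0.927) and Arrdc3 (0.922). Kcnk2 ran with Cmtm5 (0.972) and Ccdc181 (0.962), and Trpv4 with Snx22 (0.942) and Stard8 (0.935). Piezo2 had the weakest partners by the second value, Plpbp (0.876) and Rnmt (0.820), and Trpv2 ran with Kcnip4 (0.856).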
